A study of Arabidopsis thaliana with 6 samples.

Results

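The photosystem I antenna genes LHCA1 to LHCA6 are described here in Arabidopsis thaliana seedlings. The wild type, Col-0, was set against EsANAC029-OE, whose name gives overexpression of EsANAC029, which encodes a NAC-type regulator from Elymus sibiricus, a forage grass. The members are the 6 loci AT3G54890, AT3G61470, AT1G61520, AT3G47470, AT1G45474 and AT1G19150, picked by locus identifier from a table of 32962 genes, and all 6 passed the filter on low values. Messenger RNA of 25-day-old seedlings, kept at 25 °C in cycles of 16 h light and 8 h dark, was sequenced as paired 150-base reads from total RNA, with 3 libraries of each genotype and no other treatment. The labels do not give the promoter that drives the transgene, the number of independent lines, or whether the 3 libraries of a genotype came from separate plantings, so the p-values measure the spread between these libraries only.

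Light-harvesting chlorophyll a/b proteins bind the pigments that feed light energy to the photosystems. In photosystem I of land plants, LHCA1 to LHCA4 form a crescent on the side of the core, LHCA1 paired with LHCA4 and LHCA2 paired with LHCA3, and LHCA3 and LHCA4 carry the chlorophylls that absorb farthest to the red. LHCA5 and LHCA6 are scarce relatives that join photosystem I to the chloroplast NADH dehydrogenase-like (NDH) complex, which works in cyclic electron flow. All are encoded in the nucleus, made in the cytosol and imported into the chloroplast.

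The genes lie apart from each other in the TAIR10 genome. LHCA1 is on chromosome 3 from 20339504 to 20341176 (minus strand), LHCA2 on chromosome 3 from 22745514 to 22747444 (plus strand), and LHCA4 on chromosome 3 from 17493343 to 17495033 (minus strand). LHCA3 is on chromosome 1 from 22699715 to 22701412, LHCA5 on chromosome 1 from 17179250 to 17180806, and LHCA6 on chromosome 1 from 6612630 to 6613972, all on the plus strand. Their coding sequences, of 726 to 822 bases in 3 to 5 exons, were 58.9% to 66.4% identical between pairs of members, and the longest run of bases shared by any pair was 20 bases, against reads of 150 bases. A stretch of exon from LHCA2 and LHCA6 is shown to let the members be told apart by eye. Of the 6 genes, LHCA2 kept the largest and LHCA6 the smallest percentage of its Col-0 level in EsANAC029-OE replicate 1. The LHCA2 stretch is chr3:22746830-22746919 and the LHCA6 stretch chr1:6613594-6613683, both of the RefSeq TAIR10.1 assembly, plus strand, with the 30 of 90 bases that differ in capitals.
LHCA2: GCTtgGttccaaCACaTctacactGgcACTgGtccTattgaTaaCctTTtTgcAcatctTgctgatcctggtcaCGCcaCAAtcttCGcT
LHCA6: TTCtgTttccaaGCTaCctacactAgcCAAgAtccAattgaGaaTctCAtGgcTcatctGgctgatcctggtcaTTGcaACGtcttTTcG

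The sequences just upstream of LHCA1, LHCA3 and LHCA4 are shown. Over the 6 libraries these genes lay nearer than LHCA2 to the mean pattern of LHCA1 to LHCA4. They end at the base before the annotated start and stop at any neighbouring gene, at chr3:20341177-20341356 (minus strand) for LHCA1, chr1:22699465-22699714 (plus strand) for LHCA3 and chr3:17495034-17495283 (minus strand) for LHCA4, from RefSeq TAIR10.1. Capitals mark matches on either strand to the searched motifs. These were the G-box with the letters CACGTG, the I-box with GATAAG, the CCAAT box, a motif of GLK factors with AGATTCT, the evening element with AAAATATCT, and a sequence bound by the clock factor CCA1 with AAAAATCT. No matches to different motifs overlapped in these windows.
LHCA1: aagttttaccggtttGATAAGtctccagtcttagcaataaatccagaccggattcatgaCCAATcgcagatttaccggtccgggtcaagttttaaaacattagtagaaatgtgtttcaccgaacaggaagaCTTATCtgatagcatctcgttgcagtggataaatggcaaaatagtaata
LHCA3: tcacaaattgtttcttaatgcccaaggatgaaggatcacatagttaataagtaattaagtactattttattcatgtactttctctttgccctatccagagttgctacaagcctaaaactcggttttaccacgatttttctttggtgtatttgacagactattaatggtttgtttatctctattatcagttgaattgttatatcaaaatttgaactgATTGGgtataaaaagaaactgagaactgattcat
LHCA4: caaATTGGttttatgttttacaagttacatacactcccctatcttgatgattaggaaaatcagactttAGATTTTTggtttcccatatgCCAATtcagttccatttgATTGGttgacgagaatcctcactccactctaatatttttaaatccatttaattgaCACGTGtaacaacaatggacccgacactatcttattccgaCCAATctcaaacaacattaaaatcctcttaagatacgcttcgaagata

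Over the full 250 bases upstream, CCAAT stood in 5 of the 6 members and in 46% of 27419 protein-coding genes on the nuclear chromosomes. The G-box was present in LHCA4 (6.48% of all), the I-box in LHCA1 (12.3%), the evening element in LHCA5 (2.36%) and the CCA1-binding sequence in LHCA4 (6.69%). The GLK motif was in none of the 6 (6.23% of all). The windows thus differed in which of these letters they hold, and a match is a description of sequence only. The LHCA6 start is 20 bases from the neighbouring gene AT1G19140, so both CCAAT matches of LHCA6, at 74 and 106 bases upstream, lie in that gene.

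The libraries held 19608819 to 21715274 reads in genes, a depth at which each of LHCA1 to LHCA4 had at least 15040 reads in every library. EsANAC029-OE replicate 1 stood apart: its correlation over 17221 tested genes was 0.691 to 0.734 with the Col-0 libraries, against 0.857 to 0.899 for replicates 2 and 3, as a value across genes, which are not independent. Over all tested genes limma called 1359 (7.89%), with 743 risen (4.31%) and 616 fallen, and scaling by library size alone gave 2749 risen and 377 fallen. The summed level of 5 leaf mesophyll markers (RBCS-1A, RBCS-1B, RBCS-2B, RCA and SBPASE) was 19757 to 24243 FPKM in Col-0 and 2101 to 14189 FPKM in EsANAC029-OE. Of these markers, 4 were lower in every overexpressor library than in any Col-0 library, against 20.3% of all tested genes. None was called. Their part in the antenna results was not tested. The summed level of 5 markers each was at most 1.16 FPKM for root, 3.79 FPKM for flower and 2.27 FPKM for seed and embryo in any library, and the seed markers CRC and OLEO1 were listed at 0 in all 6. In RNA pooled from many cells, fewer mesophyll cells and less RNA per cell cannot be told apart.

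All 6 photosystem I antenna genes had lower transcript levels in each EsANAC029-OE library than in any Col-0 library, and replicate 1 was the lowest for every gene. Of all tested genes, 39.9% had groups that did not overlap, and 20.3% did so with EsANAC029-OE lower. The summed level of LHCA1 to LHCA6 was 19596, 22172 and 21728 FPKM in Col-0 replicates 1, 2 and 3 and 2512, 4627 and 6683 FPKM in EsANAC029-OE replicates 1, 2 and 3. The 6 genes together took 2.59 ± 0.104% of reads in Col-0 and 0.741 ± 0.347% in EsANAC029-OE (mean ± SD, n = 3 each, two-sided exact permutation p = 0.1, the smallest value that 3 libraries per group allow). FPKM values are fragments scaled by gene length and by library size, so levels of different genes are compared per length. The deposited values also carry a factor on the size of each library, 0.872 to 0.920 in Col-0 and 1.06 to 1.25 in EsANAC029-OE. Beside scaling by library size alone, these factors raise the Col-0 levels and lower the EsANAC029-OE levels.

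**Figure D1:**
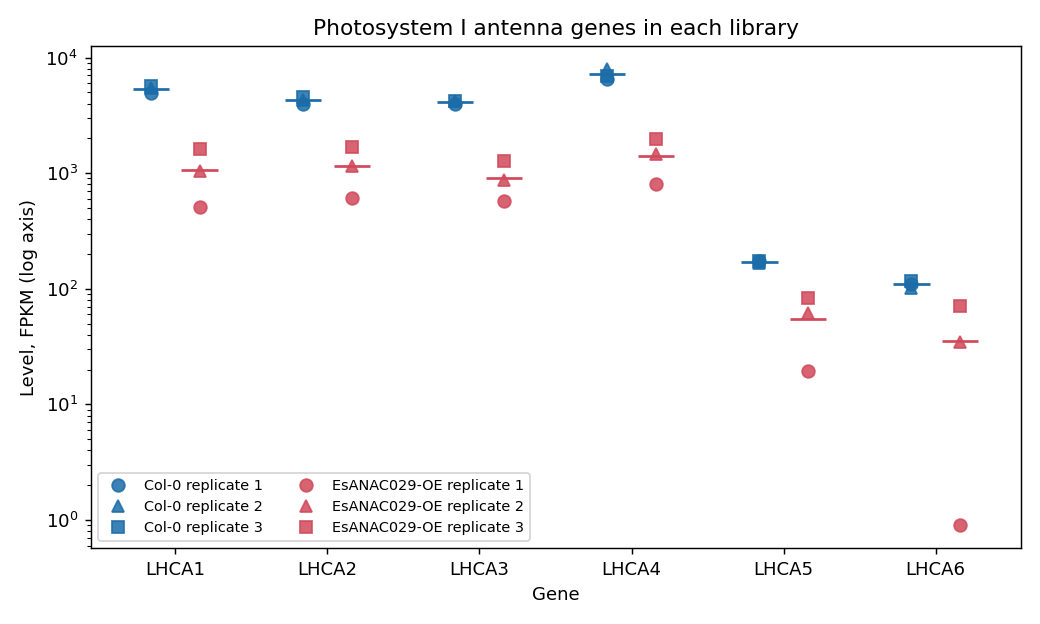
Level of each gene in FPKM on a log axis, with 1 point per library (blue for Col-0, red for EsANAC029-OE, shapes for replicates) and short lines for group means. In every gene the 3 red points lie below the 3 blue points, and LHCA6 in EsANAC029-OE replicate 1 sits at 0.899 FPKM, far under its other libraries.

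LHCA4, which carries red-absorbing chlorophylls and pairs with LHCA1, was the most abundant member in all 6 libraries. It was at 6495, 7993 and 6979.85 FPKM in Col-0 and at 799, 1461 and 1957 FPKM in EsANAC029-OE, in replicate order. The overexpressor levels were 11.2%, 20.4% and 27.3% of the Col-0 mean, and no library of one genotype reached the range of the other. Its log2 fold change on the log2(FPKM + 1) scale was −2.44 (SE 0.560, 95% interval −3.79 to −1.08, limma adjusted p = 0.0520), which missed the threshold of 0.05. It overlaps AT3G47460 on the opposite strand by 53 bases, and that gene was at 0.986 to 2.98 FPKM.

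LHCA1, the partner of LHCA4, was at 4919.6, 5406 and 5649 FPKM in Col-0 and at 514, 1044 and 1628 FPKM in EsANAC029-OE, in replicate order. The groups were far apart, with overexpressor levels of 9.66%, 19.6% and 30.6% of the Col-0 mean. The log2 fold change was −2.47 (SE 0.564, 95% interval −3.84 to −1.11, limma adjusted p = 0.0509).

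LHCA3, which also holds red-absorbing chlorophylls, was at 3942, 4239.8 and 4223 FPKM in Col-0 and at 571, 868 and 1274 FPKM in EsANAC029-OE. Among LHCA1 to LHCA4 it had the tightest spread in both groups, with a coefficient of variation of 4.05% in Col-0 and 39.1% in EsANAC029-OE. It fell, with a log2 fold change of −2.27 (SE 0.465, 95% interval −3.39 to −1.14, limma adjusted p = 0.0402), and was the single member that passed the test, against 3.58% of all tested genes called as fallen. At an unadjusted p under 0.05, 5 of the 6 members were lower (LHCA6 was not), against 14.7% of all tested genes lower and 28.3% in either direction. Limma-voom on the recovered reads called LHCA3 and LHCA4 (adjusted p = 0.0388 and 0.0412), against 2.13% of tested genes fallen.

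LHCA2, the partner of LHCA3, was at 3957, 4263 and 4586 FPKM in Col-0 and at 608, 1158 and 1671 FPKM in EsANAC029-OE. Its overexpressor levels were 14.2%, 27.1% and 39.1% of the Col-0 mean, the highest shares among LHCA1 to LHCA4 in each library. The log2 fold change was −2.01 (SE 0.526, 95% interval −3.28 to −0.74, limma adjusted p = 0.0689).

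LHCA5, the scarce member that helps hold photosystem I and NDH together, was at 173, 168 and 172 FPKM in Col-0, with a coefficient of variation of 1.62%. In EsANAC029-OE it was at 19.5, 61.8 and 82.8 FPKM, or 11.4%, 36.1% and 48.4% of the Col-0 mean. Its log2 fold change was −1.85 (SE 0.515, 95% interval −3.10 to −0.61, limma adjusted p = 0.0782). The last 192 bases of LHCA5 overlap AT1G45545 on the opposite strand, and whether the counting used strand is not given, but that gene was at no more than 0.360 FPKM in any library.

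LHCA6, the other member tied to NDH, was at 109.8, 102 and 117 FPKM in Col-0 and at 0.899, 34.6 and 70.4 FPKM in EsANAC029-OE. Its level in replicate 1 was 0.819% of the Col-0 mean, against 31.5% and 64.1% in replicates 2 and 3. That value rests on 24 reads where 2929.85 would stand at the Col-0 mean, with an exact Poisson 95% interval of 0.576 to 1.34 FPKM that covers counting error only. Replicate 3 exceeded replicate 1 by 78.2-fold, against 2.23-fold to 4.24-fold for the other 5 members. The groups did not overlap, yet with this spread the log2 fold change of −2.71 (SE 1.28, 95% interval −5.81 to 0.39) did not pass the test (limma adjusted p = 0.226).

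Such a gap was rare among the genes compared, in a comparison chosen after the value was seen. Of 4624 tested genes at 20 FPKM or more in every Col-0 library, 23, or 0.497%, lay at least as far below the lower of replicates 2 and 3 in replicate 1 as LHCA6 did (4.23 on the log2 scale). That set has no upper limit of level. On the log2(FPKM + 1) scale, genes near 20 FPKM have little room for such a gap. The percentage depends in part on that cut-off. For LHCA5 the gap was 1.61 and 410 genes had one as large, and for LHCA1 to LHCA4 it was 0.604 to 1.02. The gene next to the LHCA6 start, AT1G19140, was at 4.75, 6.40 and 6.44 FPKM in Col-0 and at 3.84, 7.23 and 6.48 FPKM in EsANAC029-OE, so the groups overlapped (limma adjusted p = 0.953). GRXS14, a chloroplast glutaredoxin gene that lies 180 bases from the LHCA1 start, was at 75.8, 74.3 and 86.9 FPKM in Col-0 and at 28.7, 36.4 and 41.3 FPKM in the overexpressor, and it fell (limma adjusted p = 0.0263). At 581 bases from LHCA4, AT3G07765 was at 0.200, 0 and 0 FPKM in Col-0 and at 3.66, 1.54 and 1.60 FPKM in the overexpressor. Limma called it as risen (adjusted p = 0.0334). It passed the filter of 1 FPKM in 3 libraries only through the overexpressor libraries, at values near that limit. Nothing is drawn from its call or from its place in the count of neighbours. Of the 12 nearest neighbours of the members 8 were tested, and GRXS14 and AT3G07765 were the 2 called, against 7.89% of all tested genes. The neighbours named were picked after their values were seen.

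Which members passed the test depended on the libraries used. Without EsANAC029-OE replicate 1, LHCA1 to LHCA5 were called as fallen (limma adjusted p = 0.0126 to 0.0216), against 9.51% of the 16795 genes then tested. For LHCA6 the log2 fold change was then −1.13 (SE 0.300, limma adjusted p = 0.0563), which missed the threshold. LHCA3 lost its call without any 1 of the Col-0 libraries (adjusted p = 0.143, 0.153 and 0.162 without replicates 1, 2 and 3) and without EsANAC029-OE replicate 2 (0.108). Without EsANAC029-OE replicate 3, LHCA1 and LHCA3 were called (0.0445 and 0.0417), against 3.52% of the genes then tested called as fallen.

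**Figure D2:**
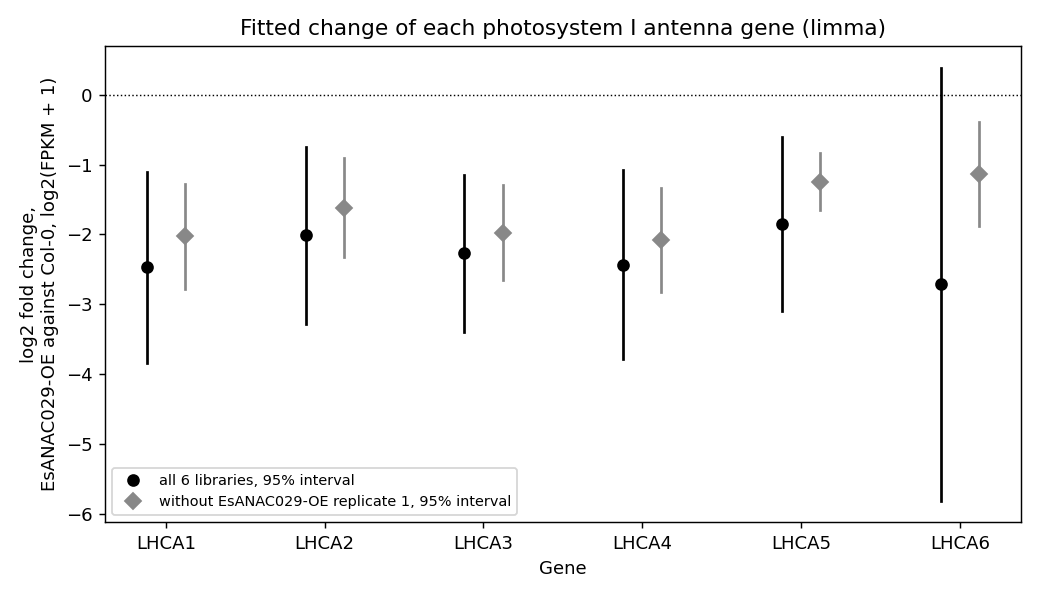
Log2 fold change of EsANAC029-OE against Col-0 for each gene with its 95% interval from limma, with all 6 libraries (black) and without EsANAC029-OE replicate 1 (grey). The intervals of LHCA1 to LHCA5 lie below 0 in both fits, and that of LHCA6 runs from −5.81 to 0.39 with all libraries and lies below 0 without replicate 1.

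The order of the members by level changed in its middle places. In all 3 Col-0 libraries the order was LHCA4, LHCA1, LHCA2, LHCA3, LHCA5, LHCA6, where LHCA2 and LHCA3 overlapped in range and the other neighbours did not. In EsANAC029-OE, LHCA4 stayed first and LHCA2 came second in all 3 libraries, and the ranges of LHCA1 to LHCA4 overlapped each other, as did those of LHCA5 and LHCA6. LHCA1 was above LHCA2 in 3 of 3 Col-0 libraries and below it in 3 of 3 EsANAC029-OE libraries, with a log2 ratio of 0.32 ± 0.02 and −0.14 ± 0.10 respectively (mean ± SD, exact permutation p = 0.1), in a pair chosen after the values were seen.

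A share of the summed level within a library does not depend on how libraries are scaled to each other. LHCA2 made up 20.2%, 19.2% and 21.1% of the summed FPKM of the 6 genes in Col-0 and 24.2%, 25.0% and 25.0% in EsANAC029-OE. LHCA4 made up 33.1%, 36.1% and 32.1% in Col-0 and 31.8%, 31.6% and 29.3% in EsANAC029-OE, and LHCA1 went from 25.2 ± 0.811% to 22.5 ± 1.94%. The groups did not overlap for these 3 genes, with LHCA2 higher and LHCA1 and LHCA4 lower in EsANAC029-OE. For LHCA1 this was a near tie, with 24.38% in Col-0 replicate 2 and 24.35% in EsANAC029-OE replicate 3. Each of the 3 genes had an exact permutation p = 0.1, the smallest possible here, and an adjusted p = 0.267 over the 8 shares and ratios tested. The share of LHCA3 was 19.6 ± 0.507% and 20.2 ± 2.20% (exact permutation p = 1).

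The scarce members together made up less than 3% of the summed level in every library. LHCA5 made up 0.881%, 0.757% and 0.794% in Col-0 and 0.777%, 1.34% and 1.24% in EsANAC029-OE (exact permutation p = 0.3). LHCA6 made up 0.560%, 0.461% and 0.540% in Col-0 and 0.0358%, 0.747% and 1.05% in EsANAC029-OE (exact permutation p = 0.8). Both shares were above the Col-0 range in EsANAC029-OE replicates 2 and 3, while in replicate 1 LHCA6 was below it and LHCA5 within it.

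**Figure D3:**
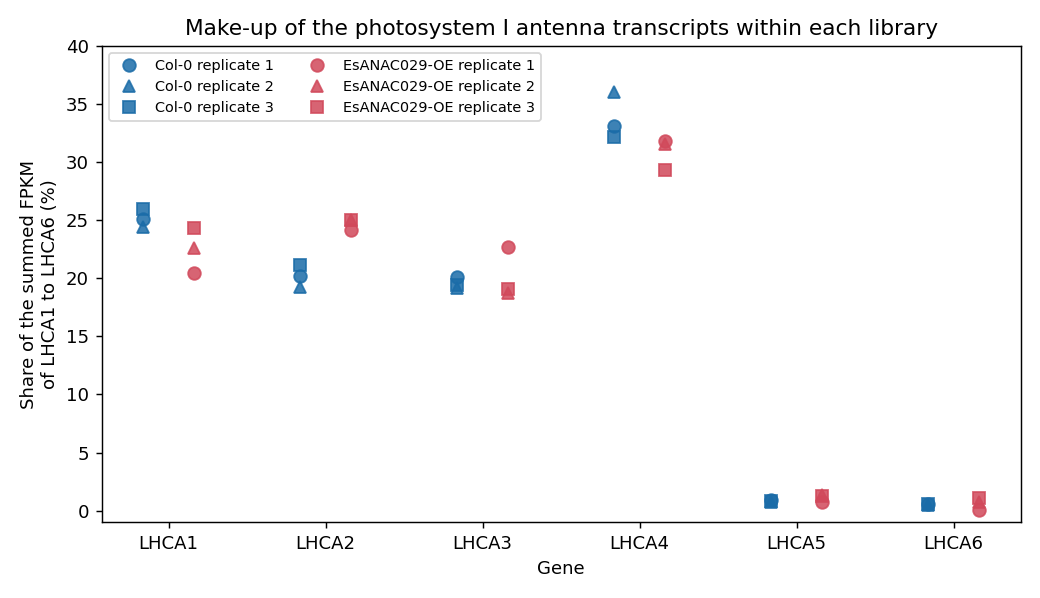
Share of each gene in the summed FPKM of LHCA1 to LHCA6, in percent, with 1 point per library. The red points of LHCA2 (24.2% to 25.0%) lie above its blue points (19.2% to 21.1%), and those of LHCA1 and LHCA4 lie below theirs. For LHCA1 the highest red point (24.35%) and the lowest blue point (24.38%) nearly meet.

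The antenna genes were next set beside the rest of photosystem I. All 12 nuclear genes for photosystem I subunits in the list (PSAD1 to PSAO) were lower in every EsANAC029-OE library than in any Col-0 library (20.3% of all tested genes), and 3 of 12 fell by limma (3.58% of all tested genes), at a median log2 fold change of −2.20, against −2.35 for the 6 antenna genes and −0.00914 over all tested genes. PSAD2 and PSAD1, which form the docking site for ferredoxin, went from 1792 ± 133 to 349.8 ± 163 FPKM and from 2914 ± 169 to 728 ± 311 FPKM, and PSAH1, a subunit at the docking site of the mobile antenna, from 856 ± 58.3 to 235 ± 93.7 FPKM (adjusted p = 0.0275, 0.0455 and 0.0331). The mean level of LHCA1 to LHCA4 stood above the mean of these 12 by 0.985, 0.999 and 1.04 on the log2 scale in Col-0 and by 1.17, 0.795 and 0.758 in EsANAC029-OE (exact permutation p = 0.4). The ratio of antenna to core transcripts was thus higher in EsANAC029-OE replicate 1 and lower in replicates 2 and 3 than in Col-0. Of 5 photosystem I genes encoded in the plastid, PSAA and PSAB, the core reaction center proteins, fell (adjusted p = 0.0406 and 0.0317), from 4.46 ± 0.946 to 1.19 ± 0.601 FPKM and from 6.73 ± 0.590 to 1.77 ± 0.857 FPKM. Both were low beside the nuclear subunits. In EsANAC029-OE replicates 1, 2 and 3, PSAA had 67, 32 and 88 reads and PSAB had 118, 45 and 109. How fully these messenger RNA libraries hold plastid transcripts was not tested.

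Of 15 photosystem II antenna genes (LHCB1 to LHCB7), 14 were tested, 7 fell and none rose, against 3.58% of all tested genes fallen. Their median log2 fold change was −2.55. LHB1B2 was listed at 0 in all 6 libraries, and its near-identical neighbour LHB1B1 was not, so how the counting treated reads shared by those copies is uncertain. LHCB2.1 and LHCB2.2, antenna proteins of the mobile trimers, had log2 fold changes of −4.42 and −3.70, and LHCB7, a rare member, one of −1.20 (adjusted p = 0.0101, 0.0227 and 0.0234). The changes of LHCA genes spanned −2.71 to −1.85, inside the span of the LHCB genes of −4.84 to −0.70. The log2 ratio of the mean level of LHCA1 to LHCA4 to that of LHCB averaged 0.41 ± 0.08 over the Col-0 libraries, against 0.46 ± 0.32 over the EsANAC029-OE libraries (mean ± SD, exact permutation p = 1). The difference of 0.05 was −0.14 without EsANAC029-OE replicate 1, the opposite sign, and 0.26 with geometric means of each list (exact permutation p = 0.2 for each), so its direction depends on that library.

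LHCA5 and LHCA6 were compared with the NDH complex that they join. Of 17 nuclear NDH genes 16 were tested, 1 fell and none rose, a count near the 3.58% of all tested genes called as fallen. The median log2 fold change of the 16 was −1.69, and ndhL, which did not pass the filter, was at no more than 0.78 FPKM. All 16 had a negative change, 11 of them at a limma unadjusted p under 0.05, against 14.7% of all tested genes lower. Of the 17 genes, 14 were lower in every EsANAC029-OE library than in any Col-0 library, against 20.3% of all tested genes. The gene that fell was ndhS, a subunit at the ferredoxin-binding side, from 48.1 ± 2.69 to 20.7 ± 7.67 FPKM (adjusted p = 0.0446). The medians of the tested NDH genes against the Col-0 mean were −3.46, −1.34 and −0.62 on the log2 scale in EsANAC029-OE replicates 1, 2 and 3. LHCA5 was at −3.07, −1.45 and −1.04 and LHCA6 at −5.86, −1.64 and −0.63 in those libraries. LHCA5 was thus above the NDH median in replicate 1 and below it in replicates 2 and 3. LHCA6 was below it in replicates 1 and 2 and beside it in replicate 3. The medians were −3.37, −1.46 and −0.67 for the mesophyll markers and −3.17, −1.97 and −1.37 for the nuclear photosystem I subunits. A pattern of this kind was thus not particular to NDH genes. The mean of LHCA1 to LHCA4 was −3.05, −2.19 and −1.65. In replicates 2 and 3 LHCA5 and LHCA6 were nearer to their Col-0 means than LHCA1 to LHCA4, by 0.74 and 0.62 for LHCA5 and by 0.55 and 1.02 for LHCA6, and in replicate 1 the differences were −0.02 and −2.82 (exact permutation p = 0.2 and 1). Against the mean change of the NDH genes, LHCA5 differed by 0.20, −0.09 and −0.50 and LHCA6 by −2.59, −0.27 and −0.09 (exact permutation p = 0.7 and 0.1). These 4 comparisons were chosen after the values were seen. PNSB3, an NDH subunit, had the lowest value of the list in replicate 1 on the log2(FPKM + 1) scale, at −5.09, still above that of LHCA6. As a percentage of the Col-0 mean, PNSL3, another NDH subunit, was lower there, at 1.91% (16 reads) against 2.08% for PNSB3. Replicate 3 exceeded replicate 1 by 48.7-fold for PNSL3 and by 28.8-fold for PNSB3. Of 12 plastid NDH genes 4 were tested, and none was called by limma or by limma-voom. By limma 2 were lower at an unadjusted p under 0.05, against 14.7% of all tested genes.

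**Figure D4:**
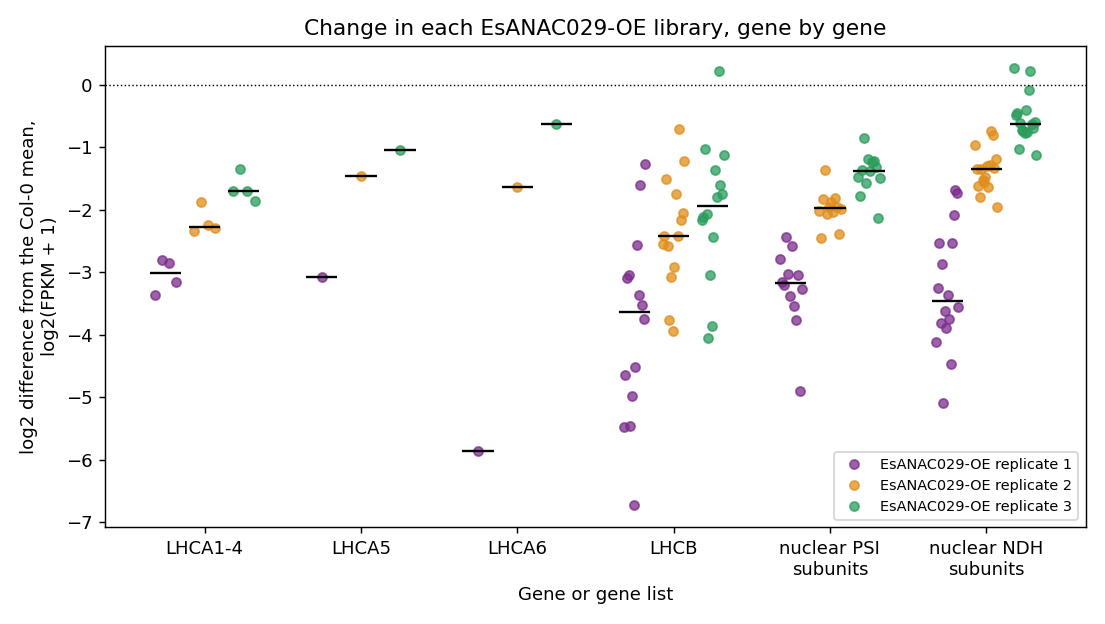
Difference from the Col-0 mean on the log2(FPKM + 1) scale in each EsANAC029-OE library, with 1 point per tested gene and a black line for the median. LHCA1 to LHCA4 lie close together in each library, and LHCA6 ranges from −5.86 in replicate 1 to −0.63 in replicate 3.

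Genes that handle the antenna proteins had medians nearer to 0. Of 5 genes for import and insertion into the thylakoid, 1 fell, against 3.58% of all tested genes. It was ALB3, the insertase of antenna proteins, from 262 ± 6.61 to 128 ± 33.1 FPKM (adjusted p = 0.0489). The list's median log2 fold change was −1.06. In the photosystem I assembly list (PYG7, PSA2, PSA3, Y3IP1 and PPD1) none of 5 was called by limma or by limma-voom. The median was −0.77, and 3 genes were lower at an unadjusted p under 0.05, against 14.7% of all tested genes. Of 5 regulators 2 fell, against 3.58% of all tested genes. CAO, which makes chlorophyll b (AT1G44446), fell from 43.4 ± 5.75 to 21.5 ± 5.36 FPKM (adjusted p = 0.0456). STN7, the kinase that phosphorylates mobile antenna, fell from 62.0 ± 4.76 to 28.2 ± 7.53 FPKM (adjusted p = 0.0349). GLK2 and its relative GLK1 (listed as GPRI1), transcription factors that activate antenna genes, were not called, at −1.11 and −0.35 on the log2 scale (limma adjusted p = 0.0568 and 0.407).

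Other genes were ranked by how closely they followed the antenna, as the root mean square difference of their log2 profiles over the 6 libraries, among 5491 named genes at a mean of 10 FPKM or more outside the lists above. Nearest to the mean of LHCA1 to LHCA4 was PSBQ2, a protein of the oxygen-evolving side of photosystem II (0.0844 on the log2 scale, 2843, 3293 and 3269 FPKM in Col-0 and 365, 765 and 1073 FPKM in EsANAC029-OE). It was followed by SS1, a starch synthase (0.139), CURT1B, which bends thylakoid membranes (0.147), FAH1, a fatty acid hydroxylase (AT2G34770, 0.168), PSBW (0.173), PSBY (0.208), PSBP1 (0.211) and PSBO1 (0.213), the last 4 being photosystem II proteins. For LHCA1 to LHCA4 themselves the distance was taken to the mean of the other 3, a different target for each. It was 0.114 for LHCA3, 0.158 for LHCA4, 0.198 for LHCA1 and 0.274 for LHCA2. LHCA5 was 0.397 and LHCA6 1.25 from the mean of all 4. Nearest to LHCA5 were PSBTN, a small photosystem II protein (0.0853), PAP12, a plastid fibrillin (0.0901), and ZKT, a chloroplast protein (0.0952). Nearest to LHCA6 were BZIP61 (0.342), DVR, which makes monovinyl chlorophyll (0.357), and ATPRX Q, a plastid peroxiredoxin (0.389). BZIP61 and DVR were at 0.0426 and 0.903 FPKM in EsANAC029-OE replicate 1, where LHCA6 was at 0.899 FPKM, and at 9.35 and 40.3 FPKM in replicate 2.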

How the data were processed

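The tools named by the authors are HISAT2, CASAVA 1.8 and edgeR, with the genome build TAIR10, per the submitters' processing notes. Which step each tool served, how reads were counted, whether strand was used and which annotation was taken is not given by any source used here. The header names no unit. The deposited values were read as FPKM, since their products with the deposited gene length (in bases) behave as reads. In each library these products were multiples of a fixed unit (100% within a tolerance of 1e-06), which recovered the reads. The unit of each library holds a factor beside its recovered reads, 0.872 to 0.920 in Col-0 and 1.06 to 1.25 in EsANAC029-OE. The main fit used the values as deposited, with these factors, and the setting of library size alone took them out. A gene was tested if 3 or more libraries held at least 1 FPKM, which left 17221 of 32962. Genotype was then tested two-sided on log2(FPKM + 1) by limma 3.58.1 with a trended variance in R 4.3.3; this scale understates changes of low genes. Calls are at a Benjamini-Hochberg adjusted p under 0.05 over all tested genes. Library scaling, filter, pseudocount, replicate block, limma-voom, threshold and left-out libraries were varied. Shares and ratios were tested with exact permutation tests. The fit was tested on simulated data with the spread of the Col-0 libraries in both groups. It was not tested with the wider spread of the EsANAC029-OE libraries. The members and lists were chosen with earlier results of these data known. Named are all members, up to 3 called genes of each list by smallest p, and the nearest 8 or 3 genes by profile. Those outside this rule (GLK1, GLK2, GRXS14, AT3G07765, ndhL, LHB1B1, LHB1B2, PNSB3, PNSL3, AT1G19140, AT1G45545, AT3G47460 and the cell type markers) were chosen after their values were seen. Coordinates of all 6 members are the same in TAIR10.1, which gave the sequences.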

Additional observations from a re-analysis of the deposited data

How the results depend on the processing

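Every log2 fold change of the 6 members was negative under all alternatives run, and the number of members called ranged from 0 to 5. Members called were 0 under library size alone, no filter, a replicate block and an adjusted p under 0.01, where 2.19%, 1.44%, 0.0174% and 0.197% of all tested genes fell, 4 with a filter of 5 FPKM (4.88% fell) and 2 by limma-voom (2.13% fell). LHCA3 was not called under library size alone (−1.90, adjusted p = 0.0549), where the median of all genes moved to 0.311 and LHCA3 lay 2.21 below it, with no filter (−2.27, 0.21), with the block (−2.27, 0.145) or at 0.01 (−2.27). The 5 FPKM filter, which tests fewer genes, called LHCA1 (−2.47, 0.0343), LHCA2 (−2.01, 0.0452) and LHCA4 (−2.44, 0.0292), and limma-voom called LHCA4 (−2.44, 0.0412). Leaving out each library in turn gave −2.86 to −2.03 for LHCA1, −2.34 to −1.61 for LHCA2, −2.55 to −1.97 for LHCA3, −2.72 to −2.08 for LHCA4, −2.26 to −1.25 for LHCA5 and −3.75 to −1.13 for LHCA6.

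Genes called over all genes numbered 1359 of 17221 tested. They numbered 3126 of 17247 under library size alone, 1423 of 17264 under upper-quartile scaling and 819 of 24871 with no filter. At 5 FPKM they numbered 1199 of 12553. Of 17221 genes, 1237 were called with a pseudocount of 0.1, 16 with the block, 821 by limma-voom and 117 at 0.01. With 1 library left out, calls ran from 59 of 16966 (without Col-0 replicate 3) to 2748 of 16795 (without EsANAC029-OE replicate 1). LHCB counts (7) became 4 with no filter, 11 at 5 FPKM and 0 with the block or at 0.01. Nuclear photosystem I counts (3) became 6 at 5 FPKM and 0 with no filter, the block or 0.01. Plastid photosystem I counts (2) became 1 at 5 FPKM, with a pseudocount of 0.1 or by limma-voom, and 0 with no filter, the block or 0.01. The nuclear NDH count (1) became 0 under library size alone, no filter, the block, limma-voom and 0.01. The import count (1) became 0 under those and under upper-quartile scaling and a pseudocount of 0.1. The regulator count (2) became 3 under upper-quartile scaling, 1 under library size alone or no filter and 0 with the block, limma-voom or 0.01. With 1 library left out these counts ran from 0 to 12 for LHCB and for nuclear photosystem I, 0 to 3 for plastid photosystem I, import and regulators, 0 to 10 for nuclear NDH, and 0 to 1 for plastid NDH and assembly. Of all genes then tested, 0.0648% (without Col-0 replicate 3) to 9.51% (without EsANAC029-OE replicate 1) were called as fallen. The cause of these shifts was not tested.

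Whether replicate numbers pair the libraries is not given by the labels. Deviations of same-numbered libraries correlated at −0.199, −0.0531 and −0.105 across genes, and those of differently numbered ones at −0.318 to 0.360. With 3 libraries per group these values cannot decide it, so the block is given as a setting only. Differences in shares by recovered reads and in ratios by geometric mean moved by less than the larger of the 2 groups' SDs. The exact permutation test cannot go below p = 0.1 with 3 against 3, so it makes no call for shares and ratios. LHCA6 in EsANAC029-OE replicate 1 rests on 24 recovered reads, although that library held 21688167 reads in genes.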
